A study of Arabidopsis thaliana with 9 samples.

Results

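The microRNAs (miRNAs) miR159, miR319, miR165, miR166 and miR172 are conserved guides of plant development, and every candidate cleavage site that names 1 of them was collected from nanoPARE libraries of Arabidopsis thaliana seedlings. nanoPARE, nano-parallel analysis of RNA ends, captures 5′ ends of RNA, among them the ends left on the 3′ fragment when a miRNA directs the slicing of a transcript. These miRNAs were chosen with earlier results of these data known. Lines were then taken by the miRNA number in the name of the interaction, for both strands of the miRNA hairpin, with no cutoff on a measured value. This gave 90 lines of 3041, which fall at 44 sites of 1662, each site a miRNA, a transcript and a slice position. They name 10 miRNAs of 279 and 44 loci, and 5 further lines at AT4G25200 were left out by the selection rule. Lines were grouped by miRNA number and strand and then by the Allen score, a mismatch penalty in which 0 is perfect pairing. A score of 4 or less is called well-paired and a higher one weakly paired.

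All plants were of genotype Col-0 and 7 days old. Control seedlings were left unheated, HS (heat stress) seedlings received 1 h at 37°C, and Recovery seedlings received 1 h at 37°C and a further 2 h at 22°C, with 3 libraries per group made from whole seedlings. The signal of a site was its number of RNA ends in RPM, reads scaled to library size, and unlisted sites were set to 0. The RPM that occurred most often in a library was read as the worth of 1 read, which ran from 0.217 to 0.429 RPM and gave implied totals of 2331769 to 4609739 reads. Of 5 heat response genes, HS libraries listed 5, Recovery libraries 3 to 5 and Control libraries 0 or 1, while all 9 libraries listed 5 of 5 photosynthesis genes, with ends summing to 25.5 to 40.7 RPM in Control, 6.27 to 27.6 RPM in HS and 7.73 to 15.8 RPM in Recovery.

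A miRNA is cut from a hairpin as a duplex, of which 1 strand is usually kept by ARGONAUTE1 (AGO1) and the other, the passenger strand, is usually discarded. AGO1 slices a well-paired target between the bases opposite miRNA bases 10 and 11. For the miRNAs considered here the kept strand lies on the 3′ arm of the hairpin. miR159 directs the cleavage of GAMYB-like MYB factors such as MYB33, miR319 that of TCP factors that restrain leaf growth, miR165 and miR166 that of the class III homeodomain-leucine zipper (HD-ZIP III) factors that set leaf polarity, and miR172 acts on APETALA2 (AP2)-like factors that delay flowering.

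The 10 miRNAs with a listed site are shown to compare the 2 arms, with the seed (bases 2 to 8) in capitals, as DNA letters 5′ to 3′ from the RefSeq annotation of TAIR10.1. The first 5 lie on the 3′ arm and the last 5 on the 5′ arm.
miR159a: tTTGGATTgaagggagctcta
miR159b-3p: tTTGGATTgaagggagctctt
miR319a: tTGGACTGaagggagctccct
miR166a-3p: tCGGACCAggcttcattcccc
miR172c: aGAATCTTgatgatgctgcag
miR159b-5p: gAGCTCCTtgaagttcaatgg
miR165a-5p: gGAATGTTgtctggatcgagg
miR166a-5p: gGACTGTTgtctggctcgagg
miR172b-5p: gCAGCACCattaagattcac
miR172d-5p: gCAACATCttcaagattcaga

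These 10 sequences hold 9 different seeds. Only miR159a and miR159b-3p share 1 (TTGGATT), and they differ by A21T, counted from the 5′ end. miR319a, whose family is related to miR159, was identical to miR159a at 17 of 20 aligned bases when shifted by 1 base. miR165a-5p and miR166a-5p differed by A4C and A15C, of which the first lies in the seed. miR172b-5p and miR172d-5p were identical at 15 of 20 bases. Under these numbers the annotation holds 28 names with 16 distinct sequences, 20 names on the 3′ arm and 8 on the 5′ arm, and where several names share a sequence the set holds at most 1 of them.

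A pairing was found in the TAIR10.1 transcripts for each of the 8 sites that are well-paired by the deposited score, and these are shown because good pairing is what slicing requires. Capitals mark the bases on either side of the expected cleavage point, opposite miRNA bases 11 and 10, and the order is that of the deposited score, with TCP24 the best paired at 2.5.
TCP24, miR319a: agggggaccCTtcagtccaa
MYB33, miR159a: tggagctcccTTcattccaat
SAHH2, miR172d-5p: tctgacccttGAggatgttgt
IAA9, miR172b-5p: gtggatctAAtggagctgc
TMK1, miR165a-5p: cttcagttcaGAtaacattct
ADC1, miR172b-5p: gagaatcttTAtggtgctgc
AT3G02750, miR172d-5p: tctgcacttGAaggtgttgc
RPP8, miR172d-5p: tctgagttatGAagatttgc

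All 8 lie in coding sequence. The TCP24 site is at chr1:10628989-10629008 on the minus strand, in exon 3 of 4, and the MYB33 site at chr5:1839579-1839599 on the plus strand, in exon 3 of 4. SAHH2 is paired at chr3:8588527-8588547 (minus strand, exon 2 of 2), IAA9 at chr5:26255445-26255463 (plus strand, exon 4 of 6) and TMK1 at chr1:24633263-24633283 (plus strand, exon 1 of 2). ADC1 is paired at chr2:7151631-7151650 (minus strand, exon 1 of 1), AT3G02750 at chr3:593650-593669 (minus strand, exon 4 of 4) and RPP8 at chr5:17464599-17464618 (minus strand, exon 5 of 6). Over the whole set 38 of 44 sites could be placed, 37 of them in coding sequence and 1, that of CA2, in a 3′ UTR. The deposited slice position was that of the pairing for 14 of the 38 and lay 1 to 274 bases away for 24, among them MYB33, TCP24 and 4 further well-paired sites, a shift whose origin was not tested. The score computed for the pairing equalled the deposited one at 19 of the 38. The pairings printed for IAA9 and RPP8 scored 4.5 and 5.0, against deposited scores of 3.5 and 4.0, so these 2 are weakly paired by the computed score. Groups by score follow the deposited values throughout.

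Of the textbook targets of these miRNAs, few had a listed end. Among 24 loci, 2 were listed with their own miRNA, MYB33 and TCP24, each in a single Control library and in no HS or Recovery library. MYB33, a MYB factor of gibberellin responses, had 0, 0.698 and 0 RPM in Control replicates 1, 2 and 3, and 0 RPM in all others. The single value stood for 2 reads, with no end in the local background as solved from the fold, a fold of 1.70 over that background and an adjusted p of 0.00982 from the deposited test. TCP24, a TCP factor of leaf development, had 0.316 RPM in Control replicate 3, which is 1 read, and 0 RPM in all other libraries. Its fold was 0.806, because the local background held 0.631 RPM, and its deposited adjusted p was 0.0743. With 1 library of 9 listing each, a difference between the groups was not detectable at this depth.

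Counted by family, 1 of the 8 MYB targets of miR159 and 1 of the 5 TCP targets of miR319 had a line with their own miRNA. None of the 5 HD-ZIP III factors paired with miR165 and miR166 (PHB, PHV, REV, CNA and ATHB8) had a line in any library. The same held for the 6 AP2-like targets of miR172 (AP2, TOE1, TOE2, TOE3, SMZ and SNZ). MYB101, a miR159 target, was listed once with a different guide, miR858a, at 0.0502 RPM in HS replicate 2, with a score of 6.0 and a deposited adjusted p of 0.77. A locus that is not listed may have had few ends as well as none. The transcript levels of these factors were not analysed here, and in whole seedlings fewer cells of a type and less RNA per cell cannot be told apart.

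Most of the set named the 5′ arm. Of the 90 lines, 81 (90%) carried a 5p name, at 35 sites, against 478 of 2946 lines (16.2%) of all other miRNAs, where names without an arm were counted as not 5p. Which arm holds the kept strand was not determined for the other miRNAs, so these shares compare names and not passenger strands. By their place in the hairpin the other 9 lines, at 9 sites, belong to the 3′ arm, 4 with a 3p name and 5 with no arm in the name, and each of these sites was listed in 1 library only. Every library listed at least 1 site of the 5′ arm, and 5 of the 9 libraries listed a site of the 3′ arm. On the 5′ arm 10 lines at 6 sites were well-paired and 71 lines at 29 sites weakly paired. On the 3′ arm 2 lines, MYB33 and TCP24, were well-paired and 7 weakly paired.

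The lines were shallow and poorly paired overall. A single read stood behind 49 of the 90 lines and less than 1 read behind 6, and the median line had 1 read, 0.349 RPM and a score of 5.5. The highest line reached 2.21 RPM, against 38.1 RPM among other miRNAs. Well-paired lines made up 12 of 90 (13.3%), against 633 of 2946 (21.5%) among other miRNAs. The median fold over local background was 0.855 against 0.806, and the fold exceeded 1 in 26.7% against 21.3%. Of the 44 sites, 26 (59.1%) were listed in exactly 1 library, against 63.8% of the sites of other miRNAs.

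The deposited adjusted p was under 0.05 for 2 of the 90 lines (2.22%), against 4.14% of all 3041 lines. MYB33 in Control replicate 2 was 1 of them. The other was AT1G65080, which encodes a membrane insertion protein of the OxaA/YidC type, with miR172d-5p and a score of 5.0. It had 1.29, 0 and 0 RPM in Control replicates 1, 2 and 3 and 0 RPM in all HS and Recovery libraries. The value stood for 3 reads with no end in the local background, a fold of 2.29 and a deposited adjusted p listed at 0. Each of these lines rests on 1 Control library, and without that library the count is 1.

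A further selection of weakly paired sites is shown for comparison with their guides, with the cleavage bases again in capitals. CA2 was the site listed in most libraries and RABG3E the site with the most signal in HS only, AT1G53870 and AT1G53890 share every base, and so do AT3G10300 and AT5G04170, of 1 read each. AT1G65080 had a deposited adjusted p under 0.05, and AT4G29020 and AT5G55180 recurred. APA1, NBR1 and UGT76B1, which also recurred, could not be placed, and the PBG1 and ISU1 sites are not printed.
CA2, miR159b-5p: cctttgagctTTgggagctc
AT3G10300, miR159b-5p: ataaggagctTCaaggagctc
AT5G04170, miR159b-5p: ataaggagctTCaaggagctc
RABG3E, miR165a-5p: cttcggatccaGAgaactttcc
AT1G53870, miR172d-5p: tttggatcttGGagatgatgt
AT1G53890, miR172d-5p: tttggatcttGGagatgatgt
AT1G65080, miR172d-5p: tctgatgctGAggatgttga
AT4G29020, miR172b-5p: gtggagttGGtggtgttgc
AT5G55180, miR172b-5p: gtgtaattttGGtggtgcagc

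The CA2 site lies at chr5:4762330-4762349 on the plus strand, in exon 10 of 10, and the RABG3E site at chr1:18236479-18236500 on the plus strand, in coding exon 5 of 8. AT1G53870 is paired at chr1:20112949-20112969 and AT1G53890 at chr1:20125514-20125534, both on the plus strand in coding exon 2. AT4G29020 is paired at chr4:14305231-14305249 and AT5G55180 at chr5:22390222-22390242, both on the plus strand and in coding sequence. The AT1G65080 site is at chr1:24180067-24180086, on the plus strand in coding exon 11 of 13. AT3G10300 is paired at chr3:3186992-3187012 and AT5G04170 at chr5:1146192-1146212, both on the plus strand in coding exon 1. The pairing printed for these last 2 scored 4.0, against a deposited score of 5.5.

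miR159 had 19 lines at 10 sites, of which 14 lines were of its 5′ arm strand. All miR159 lines summed to 2.56 ± 1.91 RPM in Control (10 lines), with 0.967 ± 0.691 RPM in HS (6 lines) and 0.381 ± 0.485 RPM in Recovery (3 lines; SD, n = 3 each). The 14 lines of miR159b-5p, at 5 sites and all weakly paired at 5.5, summed to 0.429, 0.698 and 2.84 RPM in Control, 0.34, 0.251 and 1.63 RPM in HS and 0, 0.927 and 0.217 RPM in Recovery. The values of the 3 groups overlapped.

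CA2, a carbonic anhydrase of green tissue, was the most widely listed site, in 8 of 9 libraries. It had 0.429, 0.349 and 2.21 RPM in Control, 0.34, 0.251 and 0.978 RPM in HS and 0, 0.618 and 0.217 RPM in Recovery. Replicate 3 was the highest of the Control and of the HS libraries, and the groups overlapped. The ends at this position were fewer than those around it, since the local background held 4.53 to 14.8 RPM and the fold ran from 0.0773 to 0.281. The log2 change was −0.30 (SE 0.38, limma adjusted p = 0.711) in HS against Control and −0.55 (SE 0.38, limma adjusted p = 0.402) in Recovery against Control.

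NBR1, a receptor of selective autophagy, was listed with miR159b-5p at 1 read in 1 library of each group, with 0.316 RPM in Control replicate 3, 0.326 RPM in HS replicate 3 and 0.309 RPM in Recovery replicate 2. The EF-hand calcium-binding genes AT5G04170 and AT3G10300 carry an identical site for miR159b-5p. The first was listed at 0.349 RPM in Control replicate 2 and the other at 0.326 RPM in HS replicate 3, each 1 read. The remaining miR159b-5p site, in the SecY-type translocon gene AT2G34250, had 0.316 RPM in Control replicate 3.

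On the 3′ arm, miR159b-3p had 2 weakly paired sites, both in Control alone. ATPD, the delta subunit of the chloroplast ATP synthase, had 1.74 RPM (5 reads) in Control replicate 2, with a fold of 1.34. EICBP.B, a calmodulin-binding transcription factor, had 0.947 RPM (3 reads) in Control replicate 3, with a fold of 1.19. miR159a had, beside MYB33, a weakly paired site in RAPTOR1, a partner of the TOR kinase, at 0.681 RPM in HS replicate 1 and in the lectin-like gene JAL34 at 0.316 RPM in Control replicate 3. No line of the 3′ arm of miR159 was listed in Recovery.

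miR319 was represented by the single read at TCP24. Its summed signal was 0.105 ± 0.182 RPM in Control and 0 RPM in every HS and Recovery library (SD, n = 3).

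miR165 was listed in HS alone, through its 5′ arm strand miR165a-5p. Its 3 lines summed to 2.04, 1.25 and 0 RPM in HS replicates 1, 2 and 3, and to 0 RPM in every Recovery and Control library. RABG3E, a RAB GTPase of vesicle traffic, accounted for 2 of them, with 1.36 RPM (4 reads) in HS replicate 1 and 1.25 RPM (5 reads) in HS replicate 2, at a score of 5.5. The fold was 1.0 in the first, where the local background equalled the site, and 1.8 in the other, and the deposited adjusted p was 0.804 and 0.29. TMK1, a transmembrane kinase of auxin signalling, was well-paired at 4.0 and had 0.681 RPM (2 reads) in HS replicate 1, with a fold of 0.832. HS replicate 3 listed neither site, so HS overlapped with the other groups at 0 RPM, and neither site was listed often enough to enter the test.

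miR166 had 3 lines at 3 weakly paired sites, each in 1 library, with a sum of 0.105 ± 0.182 RPM in Control, no line in HS, and 0.297 ± 0.291 RPM after recovery (SD, n = 3). The 2 sites of miR166a-3p were in Recovery. The LMBR1-like gene AT5G01460 had 0.582 RPM in Recovery replicate 1, and NPC6, a phospholipase C, had 0.309 RPM in Recovery replicate 2. miR166a-5p was listed once, at the AT-hook gene AT4G17950, with 0.316 RPM in Control replicate 3. The adjusted p deposited with these lines ran from 0.281 to 0.815.

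miR172 made up 64 of the 90 lines and 28 of the 44 sites, and 63 of these lines were of its 5′ arm strands. The exception was the J-domain gene AT3G57340, listed with miR172c at 0.34 RPM in HS replicate 1, with a score of 6.0. All miR172 lines summed to 4.67 ± 0.789 RPM in Control (24 lines), with 2.17 ± 0.637 RPM in HS (14 lines) and 3.01 ± 1.16 RPM in Recovery (26 lines; SD, n = 3 each). The weakly paired 5′ arm lines held most of this, with 3.86, 3.84 and 4.42 RPM in Control, 2.53, 1.51 and 1.3 RPM in HS and 1.46, 4.02 and 3.25 RPM in Recovery. Every HS library was below every Control library, while Recovery replicate 2 lay within the Control range. These sums over sites were not tested.

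The well-paired 5′ arm lines of miR172, at 5 sites, summed to 0.892, 0 and 0.988 RPM in Control, 0, 0.502 and 0.326 RPM in HS and 0.291, 0 and 0.0108 RPM in Recovery, and the groups overlapped. RPP8, a disease resistance protein, was listed with miR172d-5p at 0.251 RPM (1 read) in HS replicate 2 and 0.858 RPM (2 reads) in Control replicate 1. No end lay in its local background in either library, and its deposited adjusted p was 0.299 and 0.138 in these libraries. The protein phosphatase 2C gene AT3G02750 was listed with miR172d-5p at 0.326 RPM (1 read) in HS replicate 3 and 0.947 RPM (3 reads) in Control replicate 3, with folds of 1.0 and 0.86.

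SAHH2, an S-adenosylhomocysteine hydrolase of the methyl cycle, was listed with miR172d-5p in 3 libraries, but at 0.0343 and 0.041 RPM in Control replicates 1 and 3 and 0.0108 RPM in Recovery replicate 3, less than 1 read each. Of the well-paired sites of miR172b-5p, that of IAA9, a repressor of auxin responses, had 0.251 RPM in HS replicate 2, and that of ADC1, an arginine decarboxylase of polyamine synthesis, had 0.291 RPM in Recovery replicate 1. Each was 1 read, with folds of 0.624 and 1.29. Thus none of the 5 well-paired miR172 sites was listed in more than 1 HS library or more than 1 Recovery library. In Control the same held for all but SAHH2, which was listed in 2 libraries at less than 1 read each.

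Over the whole set the well-paired lines summed to 0.892, 0.698 and 1.3 RPM in Control, 0.681, 0.502 and 0.326 RPM in HS and 0.291, 0 and 0.0108 RPM in Recovery, or 0.965 ± 0.31, 0.503 ± 0.177 and 0.101 ± 0.165 RPM (SD, n = 3). The 3 groups of values did not overlap, though the lowest Control value and the highest HS value lay at 0.698 and 0.681 RPM, 2 reads each. This order did not hold under a different scaling or a different split. With the libraries rescaled to the same summed RPM, an alternative to the deposited scaling, the sums were 0.746, 0.552 and 0.979 RPM in Control, 0.553, 0.736 and 0.236 RPM in HS and 0.579, 0 and 0.0158 RPM in Recovery, and all 3 groups overlapped. The split at 4.5 adds 4 sites, among them AT1G53870 and AT1G53890, which share their reads. With it the sums were 2.15 ± 0.357 RPM in Control, with 0.67 ± 0.339 RPM in HS and 1.2 ± 0.334 RPM in Recovery, so that Recovery stood above HS. The weakly paired lines summed to 6.47 ± 2.28 RPM in Control, with 3.73 ± 1.32 RPM in HS and 3.59 ± 1.61 RPM in Recovery, with overlapping groups. The value of 1 read moved with these sums, at 0.364 ± 0.0582 RPM in Control, with 0.306 ± 0.048 RPM in HS and 0.272 ± 0.0488 RPM in Recovery, and its part in the result was not tested.

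As a share of all listed RPM the set made up 2.33% ± 0.665 in Control libraries, 1.65% ± 0.611 in HS libraries and 2.26% ± 0.564 in Recovery libraries (SD, n = 3), and the ranges overlapped. The number of lines was 9, 13 and 14 in Control, 9, 7 and 7 in HS and 7, 12 and 12 in Recovery, which is 2.82% to 3.4%, 1.83% to 3.05% and 2.79% to 3.55% of the lines of a library.

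The sites that recurred were nearly all of miR172 5′ arm strands. Of the 11 sites listed in at least 3 libraries, 9 were of miR172b-5p or miR172d-5p and 2, CA2 and NBR1, of miR159b-5p. APA1, a vacuolar aspartic protease, was listed with miR172d-5p in 6 libraries, with 0, 0.349 and 1.89 RPM in Control, 1.36, 0 and 0.652 RPM in HS and 0, 0.927 and 0.868 RPM in Recovery. Each group held a library at 0, and the values overlapped. The score was 6.0 and the fold ran from 0.326 to 1.13.

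AT1G53870 and AT1G53890, a pair of LURP-one-like genes, had the same values in every library. Each had 0.429, 0.698 and 0 RPM in Control, 0, 0 and 0 RPM in HS and 0.146, 0.464 and 0.325 RPM in Recovery. The Recovery values stood for 0.5 or 1.5 reads, and their sites were identical at 21 of 21 bases, so the 2 genes share these reads and the gene that they come from is uncertain. No HS library listed the pair and every Recovery library did, while 1 Control library was also at 0.

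AT4G29020, which encodes a glycine-rich protein, had 0.429, 0.349 and 0.631 RPM in Control, 0.681, 0 and 0 RPM in HS and 0, 0 and 0.217 RPM in Recovery with miR172b-5p. All Recovery libraries lay below all Control libraries, by the difference between 1 read of 0.217 RPM and 1 read of 0.349 RPM at the closest. AT5G55180, a glycosyl hydrolase family 17 gene, had 0, 0.349 and 0 RPM in Control, 0, 0.251 and 0 RPM in HS and 0.291, 0.309 and 0.434 RPM in Recovery with miR172b-5p. Recovery lay above HS in every library and overlapped with Control, and all values were of 1 or 2 reads.

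PBG1, a subunit of the 20S proteasome, had 0, 0.349 and 0.947 RPM in Control, 0, 0.502 and 0 RPM in HS and 0, 0 and 0.217 RPM in Recovery with miR172d-5p. ISU1, an iron-sulphur cluster scaffold, had 0, 0.349 and 0.316 RPM in Control, 0.34, 0 and 0 RPM in HS and 0 RPM in each Recovery library with miR172b-5p. Both were listed at folds under 1, and their groups overlapped. UGT76B1, a glycosyltransferase of immune signalling, was at 0 RPM in each Control library, at 0.15, 0 and 0 RPM in HS and at 0, 0.309 and 0.217 RPM in Recovery with miR172d-5p.

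The groups were compared site by site with limma on log2(RPM + 1), over the 322 sites of all miRNAs that at least 3 libraries listed, with Benjamini-Hochberg adjustment. Of the 44 sites, 11 passed this filter. Among them are AT1G53870 and AT1G53890, which share their reads but count as 2 in the numbers that follow. Standard errors on the log2 scale ran from 0.03 at SAHH2 to 0.43 at APA1 among these 11, against up to 0.87 over all sites. A small error at a site of very low RPM is not a mark of precision, since the added 1 compresses its spread. The median of all 322 sites was itself −0.13 in HS against Control and −0.15 in Recovery against Control, and changes of the set are to be read against it. On this scale the change of a low site and its error are both understated, and a change against a group at 0 sets no bound.

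In HS against Control limma called 0 of the 11 sites, against 4.97% of all sites. An unadjusted p under 0.05 was found at 0 of the 11, against 51 of all 322 sites. The values fitted were lower at 9 and higher at 2, against 210 lower and 106 higher over all 322 sites. Their median was −0.13, equal to that of all sites. APA1, among the lower, and NBR1, among the higher, had log2 changes of −0.00 and 0.00. The lowest adjusted p was 0.508, at AT1G53870 and AT1G53890, with a log2 change of −0.43 (95% interval −1.03 to 0.18). The groups did not overlap at 0 of the 11, against 16.5% of all sites.

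In Recovery against Control limma again called 0 of 11, against 2.80% of all sites. UGT76B1 was the 1 site of the 11 with an unadjusted p under 0.05, against 62 of all 322 sites. Its log2 change was 0.22 (SE 0.10), with a limma adjusted p of 0.226. It rested on 1 read in each of Recovery replicates 2 and 3 and 0.44 read in HS replicate 1. The fitted values were lower at 9 sites and higher at 2, against 204 lower and 115 higher over all 322 sites. Their median was −0.04, against −0.15 over all sites. The groups did not overlap at 1 site, AT4G29020, against 23.0% of all sites, and its log2 change was −0.46 (SE 0.31, limma adjusted p = 0.399). The Control libraries are those that HS was also set against.

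In Recovery against HS limma called 0 of 11 sites, against 0.932% of all sites. An unadjusted p under 0.05 was found at 0 of the 11, against 38 of all 322 sites. Values were higher at 5 and lower at 6, against 138 higher and 180 lower over all 322 sites. Their median was −0.01, against −0.02 over all sites. The groups did not overlap at 3 sites, against 13.0% of all sites. All 3 were higher in Recovery, namely AT5G55180, with a log2 change of 0.32 (95% interval −0.19 to 0.83), and the pair AT1G53870 and AT1G53890, which share their reads, with 0.38 each (95% interval −0.22 to 0.99). At AT5G55180 the closest values were 1 read each, 0.251 RPM in HS replicate 2 and 0.291 RPM in Recovery replicate 1. The lowest adjusted p was 0.558, at UGT76B1. Since each of the 11 intervals between Recovery and HS held 0, a difference was not detectable at this depth, which is not the same as equal signal.

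A miRNA and transcript pair was also assigned to a group if 2 or more of the 3 replicates had a line for it. By this count 9 pairs of the set were found in Control, 3 in HS and 9 in Recovery, among 221, 170 and 180 pairs of all miRNAs. Of 15 pairs found in any group, 2 were found in all 3, CA2 and APA1, against 40 of 400 over all miRNAs. In Control alone were AT4G29020, ISU1, PBG1, SAHH2 and AT1G66130, an oxidoreductase-like gene with a Rossmann fold, and Control and Recovery shared AT1G53870 and AT1G53890. RABG3E was the pair found in HS alone. Pairs found in Control, HS or Recovery alone thus numbered 5, 1 and 5 of 15, against 118, 64 and 87 of 400 over all miRNAs. A pair in a single group by this count can have a line in another group, as AT4G29020 did in HS replicate 1.

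In Recovery alone were AT5G55180, UGT76B1, AT2G01220, PP2C52 and NSF, of which 4 pair with miR172d-5p. AT5G55180 also had a line in 1 Control and 1 HS library, and UGT76B1 in 1 HS library. NSF, an ATPase of membrane fusion, had 0.291, 0.309 and 0 RPM in Recovery, 1 read each and with no end in its local background, and 0 RPM in all HS and Control libraries. The nucleotidylyl transferase gene AT2G01220 had 0.309 and 0.217 RPM in Recovery replicates 2 and 3. PP2C52, a protein phosphatase, had 0.582, 0.618 and 0 RPM in Recovery, 2 reads each, and 0 RPM in all HS and Control libraries. The counts depend on the rule, with 2, 1 and 3 pairs in Control, HS and Recovery where all 3 replicates had to list a pair, and 25, 19 and 19 where 1 was enough. Without Recovery replicate 2 the Recovery count was 3, and without Control replicate 2 the Control count was 3.

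The remaining sites of the set, all of miR172b-5p or miR172d-5p, weakly paired and in 1 library each, had 0.217 to 0.858 RPM. They numbered 9, of which 3 were in Control, 3 in HS and 3 in Recovery, and none had a deposited adjusted p under 0.05.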

How the data were processed

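nanoPARE libraries of 9 seedling samples were compared, with groups and replicate numbers taken from the sample titles, and 3 biological replicates per group. Reads had been run by the authors through the published nanoPARE pipeline, on TAIR10 per the labels, with a version and settings not given in the sources used here. Each library has its own deposited list of candidate slice sites, with signal in RPM as scaled by the authors. The deposited ratio, called fold, equals (site RPM + 1) / (local background RPM + 1). This form was inferred: backgrounds computed back from it came to whole reads, within 0.02 of a read, for 93.3% of lines and fell below 0 for 0. The local backgrounds given here are computed in this way. For each site a deposited p-value holds the authors' adjusted p, on which the lists were not filtered. The Allen score, also deposited, penalises mismatches in the duplex, and the deposited slice position counts along the transcript.

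Between 89.2% and 94.1% of the RPM values in a library came to whole reads, within 0.01 of a read, when divided by its commonest value. The rest were fractions, so no count model was fitted. PCR copies could not be told from separate molecules. Per-site models were fitted with limma 3.58.1 in R 4.3.3 (lmFit, then eBayes with its trend option) to log2(RPM + 1) of all sites listed in at least 3 libraries, with all 9 libraries in 1 fit, Benjamini-Hochberg adjustment and a threshold of 0.05. These models were tested on simulated reads with planted changes and no added spread between replicates, so that test does not cover the spread seen here. Sums over sites were given no test. Alternatives were a pseudocount of 0.5, no filter, libraries rescaled to the same summed RPM, the replicate number as a block, each library left out, a score split at 4.5, lines of at least 1 read, the listing rule for pairs and an adjusted p of 0.1. Python 3.11.15, pandas 2.3.3 and NumPy 2.4.6 were used for tables.

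Mature miRNAs and transcripts were read from the RefSeq annotation of TAIR10.1, and all 44 transcripts were found. Duplexes were searched with bulges of at most 2 bases, and a site was placed where its score was within 1.5 of the deposited one and the next duplex scored at least 2 higher, a rule chosen after seeing the data. Coordinates are 1-based and are those of the pairing. Sites named with values were those scoring 4 or less, those listed in at least 3 libraries, those with the authors' adjusted p under 0.05, listed loci of the known targets, and sites that complete a list of 5 or fewer. RABG3E and ATPD fall under the last. The members and lists were chosen with earlier results of these data known.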

Additional observations from a re-analysis of the deposited data

How the results depend on the processing

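The number of called sites of the set was 0 in all 3 comparisons under every alternative. Over all sites, the counts called changed with the processing. Rescaling the libraries to the same summed RPM gave 9 sites in HS against Control and 5 in Recovery against Control, in place of 16 and 9. Without a filter on low sites 4 were called in Recovery against Control and 5 in Recovery against HS, in place of 9 and 3. Leaving out 1 library gave 7 to 15 sites in HS against Control, 1 to 14 in Recovery against Control and 2 to 13 in Recovery against HS, the first range reaching 7 without Control replicate 2 or HS replicate 3, the second 1 without Control replicate 2 or Recovery replicate 1 and the third 13 without HS replicate 2.

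Replicate numbers showed no pairing of the libraries, but few reads per site can hide a pairing. Deviations from the group means correlated between −0.1 and 0.1 for 9 pairs of libraries with the same number, and between −0.1 and 0.13 for 18 pairs with different numbers. With the replicate block 14, 11 and 3 sites were called in the 3 comparisons, and 0 of the set.

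For the sums, a score split at 4.5 gave well-paired signal of 2.15 RPM in Control and 1.2 RPM in Recovery, where a split at 4 gave 0.965 and 0.101 RPM. Rescaled libraries gave 5.45 RPM of weakly paired signal in Recovery, against 3.59 RPM, and well-paired signal of 0.759, 0.508 and 0.198 RPM for Control, HS and Recovery, against 0.965, 0.503 and 0.101 RPM, with overlapping groups. Without 1 library the well-paired mean ran from 0.795 to 1.1 RPM in Control, from 0.414 to 0.591 RPM in HS and from 0.00542 RPM without Recovery replicate 1 to 0.151 RPM in Recovery. The weakly paired mean ran from 5.28 to 7.56, from 2.97 to 4.13 and from 2.75 to 4.36 RPM in these groups.

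Pairs listed by all 3 replicates numbered 2 for Control, 1 for HS and 3 for Recovery, and pairs listed by any replicate 25, 19 and 19. Without 1 library, an alternative added after seeing the data, 3 to 5, 1 to 2 and 3 to 7 pairs were listed by both remaining replicates. Without Control replicate 1 or 2 the lines with the authors' adjusted p under 0.05 numbered 1, and otherwise 2. In all, 107 of the alternative values stayed within the limit set, and 32 did not. The limit was a ratio to the main count, or the SD of the main sum. Among the 107 are the counts of called sites of the set, which were 0 under every alternative. Most sites rest on 1 or 2 reads, and this depth limits every comparison.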
